A study of Mus musculus with 6 samples.

Results

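Interferon-stimulated genes were followed through an array study of hearts that lack caveolin-1, the membrane protein that shapes caveolae. The list held 33 genes taken by name, and it was chosen with earlier results of these data known. Of these genes, 31 had at least 1 probe set that the array annotation assigns to a single gene symbol. A probe set is a set of short probes read as 1 measurement. Those 31 genes stood among 18193 genes with such a probe set. Isg15, an ubiquitin-like modifier, had 1 probe set that carries several symbols, and Ifi44 was not matched to a probe set, so neither has a value here. Where a gene had several probe sets (11 of the 31 genes), the one with the highest mean over all hearts was used.

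The study compared 3 wild type hearts (WT) with 3 Cav1 knockout hearts (Cav1KO) on Affymetrix mouse arrays that hold 45101 probe sets. All 6 hearts came from male mice aged 5 to 6 months and fasted for 6 hours, and each array was hybridised with material made from 2 ug of total RNA. The labels give neither the strain nor the deleted part of Cav1, and they do not say that each sample is its own animal, so a p-value here speaks to the variation among these samples, which may be technical. Replicate numbers of the wild type hearts come from their labels, while knockout hearts were numbered in the order of deposit, and the numbers pair nothing. Values are log2(intensity + 16) after quantile normalisation, and a difference is the knockout mean minus the wild type mean on that scale.

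Cells that detect viral nucleic acid secrete type I interferon, which binds a receptor made of Ifnar1 and Ifnar2 and sends the factor ISGF3, which contains Stat2 and Irf9, to a DNA element called the interferon-stimulated response element (ISRE). Interferon gamma uses another receptor and acts through a DNA element called the gamma-activated site (GAS). The genes switched on by both routes include sensors of viral RNA, blockers of translation, enzymes that lead to RNA cleavage, GTPases that attack the vacuoles of intracellular microbes, and parts of the machinery that presents antigen. In uninfected tissue many of them keep a low basal level that depends on tonic interferon signalling, and in the heart immune, endothelial and stromal cells as well as cardiomyocytes can express them.

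The promoters of these genes carry the response elements as short words of sequence. In RefSeq promoter windows of mouse build GRCm38.p6, which run from 250 bases before to 50 bases after each gene start, the ISRE core, read as GAAA followed by any 2 bases and another GAAA (or TTTC, any 2 bases and TTTC on the reverse strand), was found in 13 of the 26 listed genes that had a window, against 3.99% of all 27025 genes in that table. The GAS core TTCNNNGAA, which was searched in the same way and reads alike on both strands, was found in 9 of the 26 genes, against 9.55% of all genes. Eif2ak2, Oas1a, Bst2 and Igtp held both words, and in 1 of these genes, Bst2, the matches share bases. Oas2, Mx1, Mx2, Usp18, Rtp4, Parp14 and Iigp1 were not matched to a window. The stretches below show Ifih1, one of the 2 listed genes that passed the test, and 6 genes with an ISRE match that were highest in knockout replicate 3. They are printed on the gene's strand from 5′ to 3′ with every ISRE match in capitals.
Ifih1 (chr2:62646206-62646235, minus strand): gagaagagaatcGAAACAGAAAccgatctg
Ifit1 (chr19:34640765-34640833, plus strand): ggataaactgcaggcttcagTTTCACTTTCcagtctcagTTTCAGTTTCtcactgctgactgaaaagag
Ifit3 (chr19:34583353-34583436, plus strand): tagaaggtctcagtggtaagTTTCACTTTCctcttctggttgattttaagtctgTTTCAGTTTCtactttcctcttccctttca
Gbp2 (chr3:142620584-142620633, plus strand): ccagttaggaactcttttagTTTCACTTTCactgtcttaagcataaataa
Gbp3 (chr3:142559979-142560034, plus strand): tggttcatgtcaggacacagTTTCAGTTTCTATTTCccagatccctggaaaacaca
Igtp (chr11:58199502-58199551, plus strand): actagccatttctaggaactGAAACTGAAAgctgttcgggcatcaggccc
Irgm1 (chr11:48871421-48871470, minus strand): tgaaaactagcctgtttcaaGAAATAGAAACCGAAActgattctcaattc
Ifit1 and Ifit3 each hold 2 separate matches upstream of the start, and in Gbp3 and Irgm1 a pair of matches overlaps. The Ifih1 match begins at base 33 counted from the start as 1, downstream of it. The Oasl2 window held neither word. A match is a description of the letters and not a measured binding site.

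The arrays separated the genotypes at the targeted gene. Cav1 intensity was 3853, 3836 and 4216 in the wild type hearts and 118, 101 and 100.5 in the knockout hearts, a difference of -5.02 (SE 0.067, limma adjusted p = 1.65e-09). Deposited medians lay between 43.9 and 45.8 and rank correlations between hearts between 0.989 and 0.997. The 12 cardiomyocyte markers summed to 199934 to 203542 in wild type hearts and 200478 to 202910 in knockout hearts, and none of the 12 passed the test (limma, none with an unadjusted p under 0.05), and each of the 12 had a mean intensity of at least 5750. Of the 15 macrophage markers tested 6 rose (40%), of the 12 endothelial markers 5 (41.7%) and of the 8 fibroblast markers 3 (37.5%), and none fell. Over all genes tested 2.97% passed the test as higher, and the markers were chosen with earlier results of these data known. In whole-heart RNA, more cells of a type and more RNA per cell cannot be told apart.

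As a group the interferon-stimulated genes sat close to their wild type level. Of the 30 listed genes that passed the filter on dim probe sets, 2 rose in the knockout (Ifih1, a sensor of viral double-stranded RNA, and Oasl2, an oligoadenylate synthetase-like protein), none fell and 28 did not pass the test (limma, Benjamini-Hochberg adjusted p under 0.05 over 22519 probe sets). Without adjustment, 3 listed genes had a p under 0.05, all of them higher, the third being Irf9. Over all 11486 genes tested in the same way 4.02% were called and 2.97% were called higher, so the 2 of 30 (6.67%) stand near the background. Over probe sets 3.17% were called, 531 higher (2.36%) and 183 lower (0.813%). With the intensities as deposited the split was 577 to 58, and with arrays centred on their medians it was 585 to 41.

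The differences of the 30 genes ran from -0.12 for Mx2 to 0.34 for Ifih1 and Oasl2, with a median of 0.048 against -0.014 over all genes tested. Of these differences 23 were above 0 and 7 below. The 95% intervals of all 30 genes lay inside a 1.5-fold change in either direction, those of 24 genes inside 0.40 on the log2 scale, and those of 27 genes included 0. With the intensities as deposited, the intervals of Oasl2 and Gbp2 reached beyond 1.5-fold, and with centred arrays also that of Ifih1. The hearts of the groups did not overlap for 3 of the 30 genes, Ifih1 and Oasl2 above and Stat2 below the wild type, against 28.7% of all genes. Mean intensities of the tested probe sets ran from 55.6 to 805, which describes the probes and does not rank the genes. Mx1, a dynamin-like GTPase that blocks influenza virus in the nucleus and is disrupted in many laboratory strains, had a mean of 15.1 and was below the filter, with values from 4.91 to 5.09 in all 6 hearts.

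**Figure D1:**
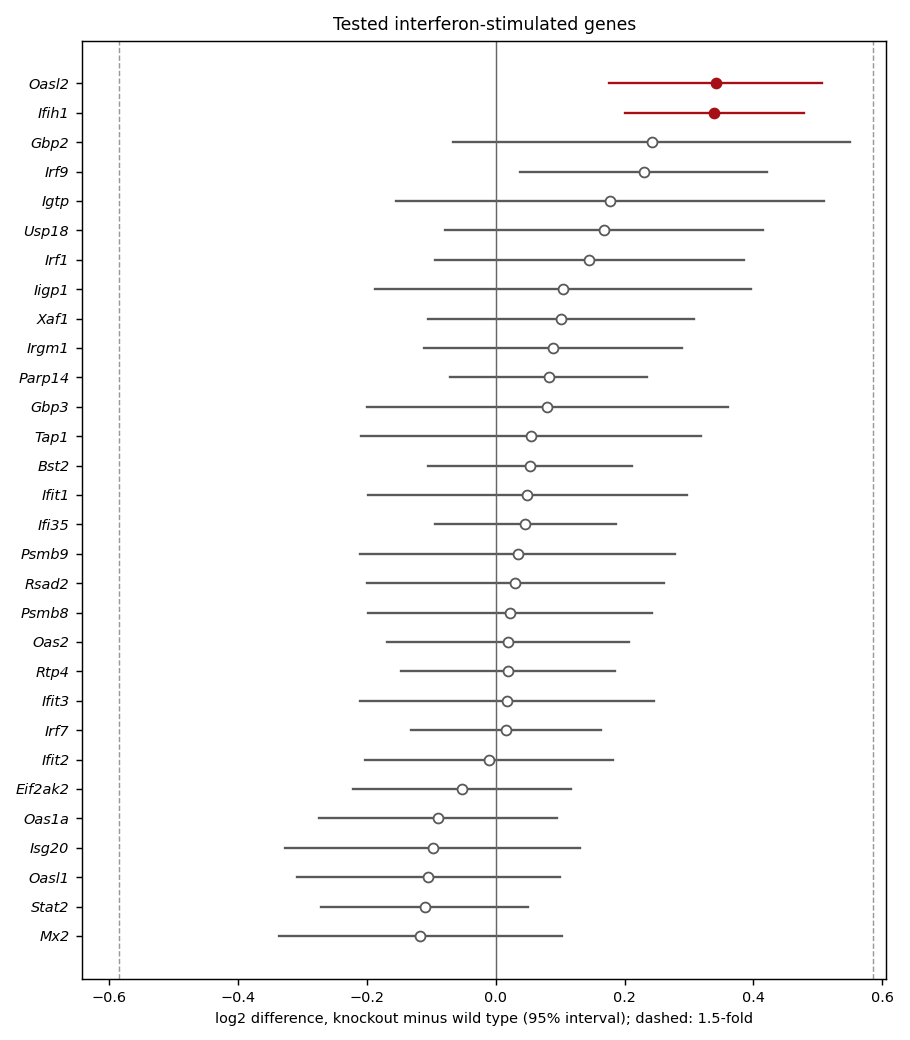
Knockout minus wild type difference in log2(intensity + 16) for the 30 tested interferon-stimulated genes, with points for the estimates (filled where called), bars for 95% intervals and dashed lines at a 1.5-fold change. Ifih1 and Oasl2 at 0.34 are the 2 genes called, and all intervals stay between the dashed lines.

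Among the sensors and effector kinases, Ifih1 (the MDA5 protein) read 7.18, 7.29 and 7.24 in the wild type hearts and 7.58, 7.53 and 7.61 in the knockout hearts. All knockout hearts lay above all wild type hearts. The difference was 0.34 (SE 0.061, 95% interval 0.20 to 0.48), limma adjusted p = 0.0237. The call was lost on leaving out wild type replicate 3 (adjusted p = 0.0793) or knockout replicate 1, 2 or 3 (0.113, 0.0751 and 0.0723, limma). Over the hearts left out, the Ifih1 difference ran from 0.31 to 0.36. Eif2ak2, the kinase PKR that halts translation on binding double-stranded RNA, read 6.30, 6.14 and 6.11 in wild type hearts and 6.13, 6.09 and 6.18 in knockout hearts, which overlap.

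The OAS family makes the second messenger that activates RNase L, and its OAS-like members act at least in part outside that route. Oasl2 read 7.40, 7.49 and 7.28 in wild type hearts and 7.65, 7.79 and 7.75 in knockout hearts, again without overlap. Its difference was 0.34 (SE 0.073, 95% interval 0.18 to 0.51), limma adjusted p = 0.0425. Leaving out wild type replicate 1 or 3 (limma adjusted p = 0.085 and 0.133) or knockout replicate 1, 2 or 3 (0.102, 0.157 and 0.109) ended the call, as did testing without a filter (0.0644), in the upper 75% (0.0554) or with eBayes without trend (0.0574). Over the hearts left out, the Oasl2 difference ran from 0.29 to 0.39. The other 3 OAS genes did not follow Oasl2: the difference was -0.090 for Oas1a, 0.019 for Oas2 and -0.10 for Oasl1, with limma adjusted p of 0.555, 0.912 and 0.532. Oasl1 and Oas1a were highest in wild type replicate 1, at 6.42 and 7.63, and Oas2 in knockout replicate 2, at 7.42.

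None of the 4 transcription factors passed the test. Irf9, the DNA-binding subunit of ISGF3, read 7.27, 7.44 and 7.27 in wild type hearts and 7.41, 7.60 and 7.67 in knockout hearts, overlapping by wild type replicate 2. Its difference of 0.23 (SE 0.084) had a limma adjusted p of 0.183. Stat2, another subunit of the same complex, stood lower in each knockout heart (6.43, 6.47 and 6.43) than in any wild type heart (6.66, 6.51 and 6.49), with a difference of -0.11 (SE 0.071) that did not pass the test (limma adjusted p = 0.404). A second probe set of Stat2 overlapped between groups, with a difference of -0.0060 (limma adjusted p = 0.966). Irf1, the early target of interferon gamma, read 8.90, 8.70 and 8.85 in wild type hearts and 9.01, 8.72 and 9.16 in knockout hearts, a difference of 0.15 (limma adjusted p = 0.46). Irf7, which amplifies interferon alpha production, differed by 0.016, and its hearts lay between 6.76 and 6.90.

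The IFIT proteins bind foreign RNA and block its translation. Ifit1 read 6.54, 6.64 and 6.51 in wild type hearts and 6.49, 6.48 and 6.88 in knockout hearts. Ifit3 read 8.27, 8.24 and 8.10 in wild type hearts and 8.10, 8.11 and 8.46 in knockout hearts, and Ifit2 was likewise highest in knockout replicate 3. In each of these genes 2 knockout hearts lay near or under the low end of the wild type range and the remaining one above it, so that group differences were -0.010 to 0.049. Mx2, the Mx protein that acts on viruses in the cytoplasm of mice, read 6.41, 6.13 and 6.13 in wild type hearts and 6.12, 6.00 and 6.22 in knockout hearts. Usp18, the protease that takes Isg15 off its targets and dampens the type I receptor, read 6.18, 6.57 and 6.23 against 6.39, 6.58 and 6.52. The groups overlapped, and the difference of 0.17 had a limma adjusted p of 0.408.

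The 7 other antiviral effectors gave no call, and their differences ran from -0.098 to 0.10. Rsad2 (viperin, which makes a chain-terminating nucleotide) overlapped between groups, as did Bst2 (tetherin, which holds budding virus at the cell surface). The probe set used for Rsad2 differed by 0.030. Its other probe sets differed by 0.092 and 0.19 (limma adjusted p = 0.635 and 0.265), also with overlap. Isg20, an RNA exonuclease, had the lowest difference of the 7, and its lowest heart was knockout replicate 2 at 7.94. Xaf1, which opposes an inhibitor of cell death, was highest in knockout replicate 3 at 8.31 and lay between 7.94 and 8.09 in the other hearts. The differences of Rtp4, Ifi35 and Parp14, an ADP-ribosyltransferase, were 0.019, 0.046 and 0.082, and of the other tested probe sets of Ifi35 one differed by -0.0033 and one by 0.11, neither called.

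The guanylate-binding proteins and immunity-related GTPases, targets of interferon gamma that act on microbe-holding vacuoles, showed the widest spread between knockout hearts. Gbp2 read 9.21, 9.002 and 8.88 in wild type hearts (9.03 ± 0.16, SD, n = 3) and 9.07, 9.15 and 9.61 in knockout hearts (9.27 ± 0.29, SD, n = 3). Igtp (Irgm3) read 8.43, 8.12 and 8.31 in wild type hearts and 8.35, 8.21 and 8.83 in knockout hearts. Iigp1 (Irga6) read 9.73, 9.55 and 9.56 in wild type hearts and 9.72, 9.42 and 10.02 in knockout hearts. In each of these genes knockout replicate 3 was above every other heart, while the remaining knockout hearts lay within the wild type range or, for Iigp1 in replicate 2, below it. A second probe set of Gbp2 read 8.31, 8.44 and 8.89 in the knockout hearts and one of Iigp1 8.83, 8.74 and 9.31, and in both replicate 3 was again the highest. The genes of these families, like the IFIT and OAS genes, have close relatives in the genome that probes may not keep apart, and the probe set used for Gbp2 is of the class the maker marks as open to cross-hybridisation. Gbp3 read 7.34, 7.35 and 7.20 in wild type hearts and 7.23, 7.21 and 7.69 in knockout hearts. Irgm1, which guards the cell's own membranes, had the same shape with 7.99 in knockout replicate 3 and 7.66 to 7.78 elsewhere. None of the 5 genes differed between genotypes by the test: the largest difference was 0.24 (SE 0.14) for Gbp2, limma adjusted p = 0.348. Without knockout replicate 3 the differences of Igtp, Iigp1 and Gbp3 were -0.0056, -0.046 and -0.077, while that of Gbp2 stayed positive at 0.075.

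Knockout replicate 3 stood apart across much of the list. It was the highest of the 6 hearts for 18 of the 30 tested genes, against 11.9% of all 11486 genes. This heart was singled out from these same values, so the count describes the pattern and is no independent result. Some of the 18 genes had a small excess over the mean of the other knockout hearts, such as Ifih1 at 0.052. Wild type replicate 1 was the highest for 6 genes and other hearts for the other 6. The median excess of knockout replicate 3 over the mean of the other knockout hearts was 0.17 for the listed genes and 0.0027 for all genes. It was highest for 19 listed genes with the intensities as deposited and for 18 with centred arrays, both added after seeing the data. The pattern was uneven by role: it took in all 5 GTPases (excess 0.29 to 0.55), all 3 IFIT genes (0.27 to 0.39), all 3 antigen processing genes and 3 of 4 transcription factors, but 3 of 7 other effectors, and none of the 4 OAS genes. Among the antigen processing genes, the immunoproteasome subunits Psmb8 and Psmb9 exceeded the mean of the other knockout hearts by 0.29 and 0.38 there, and Tap1, a chain of the peptide transporter into the endoplasmic reticulum, by 0.39. None of the 3 passed the genotype test, with differences of 0.022, 0.034 and 0.054.

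**Figure D2:**
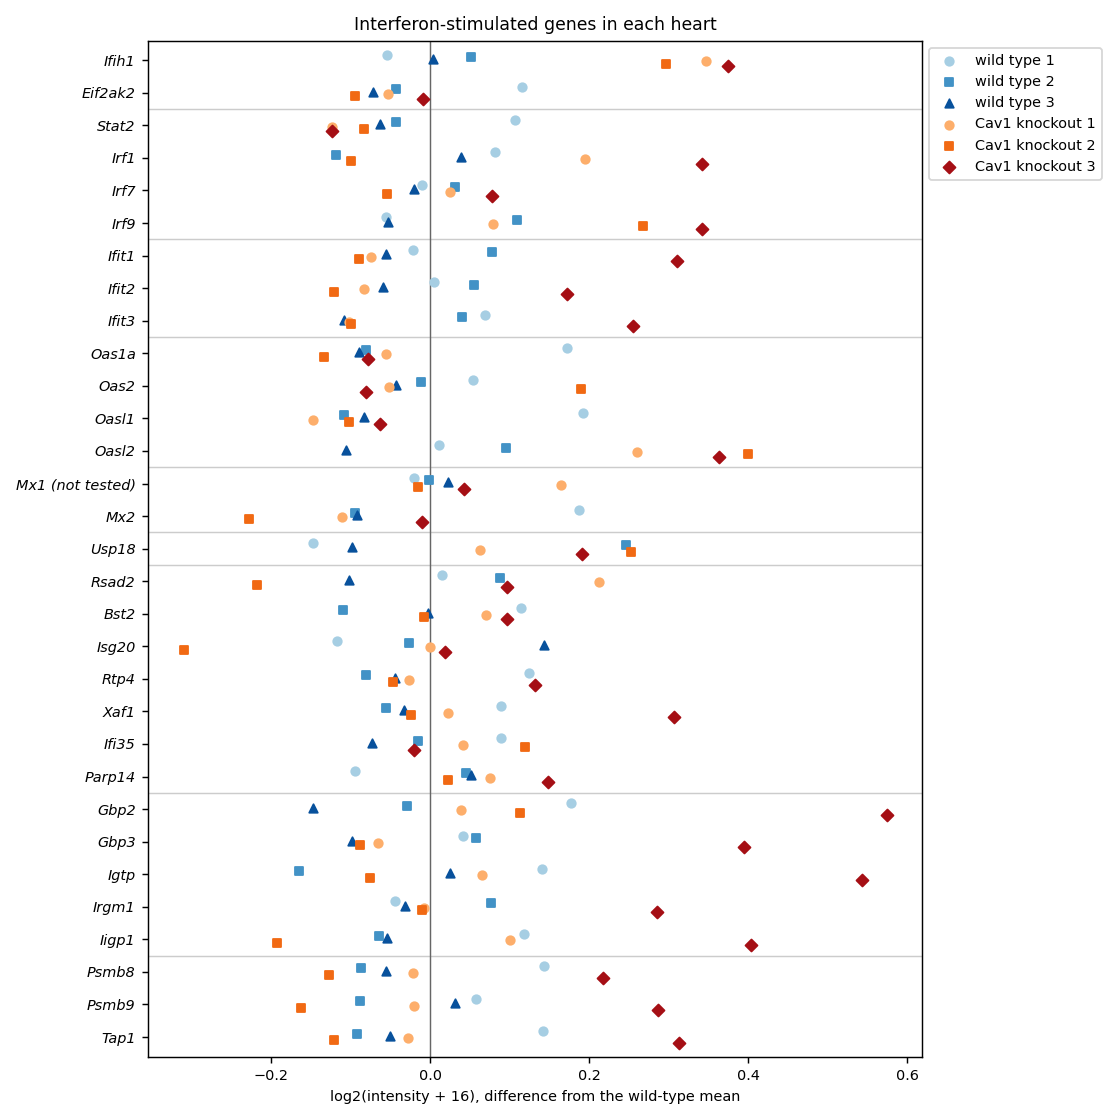
Level of each measured interferon-stimulated gene in each of the 6 hearts, in log2(intensity + 16) minus the gene's wild type mean, with 1 symbol per heart and lines between role groups. Knockout replicate 3 is the highest heart for all 5 GTPases, all 3 IFIT genes and all 3 antigen processing genes, and for none of the 4 OAS genes.

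The mean score per heart puts this in one number: the mean, over the 31 genes, of each heart's log2 value minus that gene's mean over 6 hearts. It was 0.023, -0.042 and -0.074 in the wild type hearts and -0.0062, -0.059 and 0.16 in the knockout hearts. The group means were -0.031 ± 0.049 and 0.031 ± 0.11 (SD, n = 3 each), a difference of 0.063 that is smaller than the knockout spread, and it was -0.0012 without knockout replicate 3. For the 5 GTPases the score was 0.017, -0.094 and -0.13 in wild type hearts and -0.043, -0.12 and 0.37 in knockout hearts. For the 4 OAS genes it was 0.086, -0.047 and -0.10 in wild type hearts and -0.020, 0.068 and 0.015 in knockout hearts, with no heart apart. Without Ifih1 and Oasl2 the difference of the whole list was 0.044. Genes with and without an ISRE word near the start were alike in number at the top of knockout replicate 3: among tested genes with a window, 7 of 12 with the word and 8 of 12 without it were highest there, with median excesses of 0.20 and 0.22. Psmb9 and Tap1 share 275 bases of their windows, so they are not separate cases. A gene counted as without the word, such as Ifit2 or Irf7, may hold the element outside the window or in another form. The part of the element in the pattern of knockout replicate 3 was not tested.

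**Figure D3:**
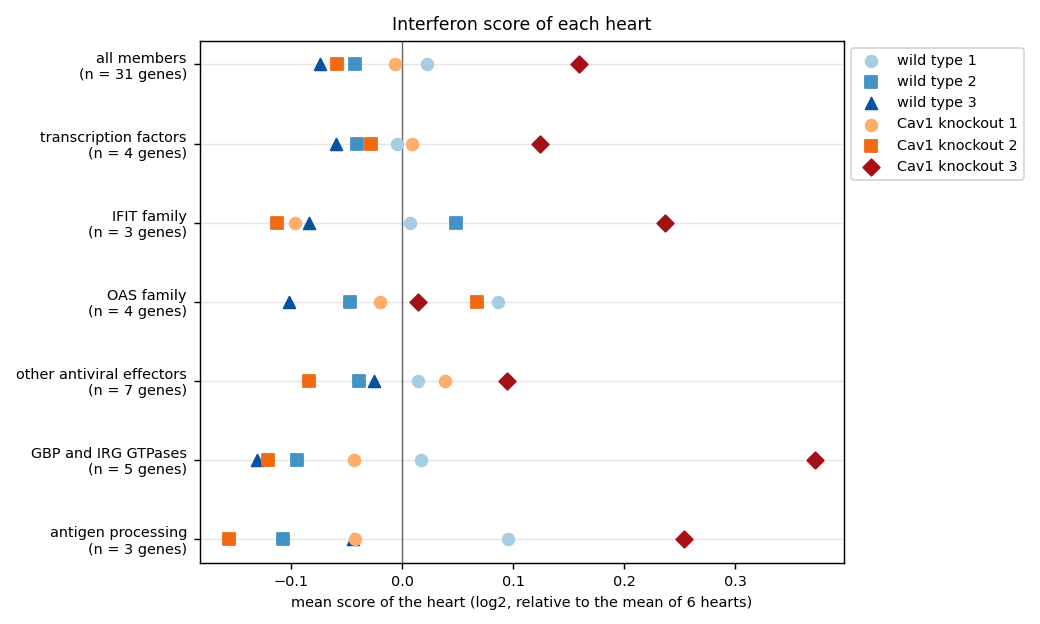
Mean score per heart (mean log2 value relative to each gene's mean over the 6 hearts) for all 31 measured genes and for role groups, with 1 symbol per heart. Knockout replicate 3 lies at 0.16 for the whole list and at 0.37 for the GTPases, and does not stand apart for the OAS genes.

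Cell type markers were set beside this pattern. The score over 8 fibroblast markers was 0.11, 0.093 and 0.33 in the knockout hearts, with replicate 3 the highest for 7 of the 8 genes, and -0.057, -0.27 and -0.20 in the wild type hearts. The macrophage score was 0.15, 0.18 and 0.12 in the knockout hearts and the endothelial score 0.27, 0.10 and 0.068, so neither was highest in replicate 3. Summed intensity in knockout and wild type hearts was 9013 to 9463 against 7100 to 8171 over 16 macrophage markers, 7726 to 8798 against 6491 to 6827 over 12 endothelial markers, and 14713 to 17645 against 11923 to 13693 over 8 fibroblast markers. The 13 T and NK cell markers with a probe set summed to 428 to 497 in knockout and 448 to 494 in wild type hearts, and the 5 plasmacytoid dendritic cell markers to 267 to 287 and 279 to 341. B cell markers (5 genes) summed to 166 to 234 and 167 to 190, with the high value in knockout replicate 1. Neutrophil markers (5 genes) summed to 290 to 1087 and 283 to 469, with knockout replicate 3 at the low end. No marker was listed at 0. The part of these cell types in the results for Ifih1, Oasl2 and knockout replicate 3 was not tested.

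The other genes of the pathway were read against the same background of 4.02% of genes called. Of 13 listed interferon genes 8 had a probe set and 1 was bright enough to be tested: Ifnb1 had a mean intensity of 17.5 and Ifng of 10.3, both below the filter, so no level was set for either ligand. None of 6 receptor chains passed (limma, 2 with an unadjusted p under 0.05). Ifnar1 and Ifnar2, the type I receptor, differed by 0.10 and 0.052 (limma adjusted p = 0.431 and 0.556). Other probe sets of Ifnar2 differed by 0.045 and, without overlap, by 0.25 (limma adjusted p = 0.71 and 0.158). Another of Ifnar1 differed by 0.18 (limma adjusted p = 0.345). Ifngr1, the ligand-binding chain for interferon gamma, read 8.64, 8.75 and 8.84 in wild type hearts and 8.88, 9.02 and 8.98 in knockout hearts without overlap, a difference of 0.22 (SE 0.067, limma adjusted p = 0.123), and Ifngr2 differed by -0.094. A second probe set of Ifngr2 differed by -0.14 (limma adjusted p = 0.254), with the knockout hearts below the wild type hearts without overlap. Of 10 signalling genes 1 rose, Irf8, a factor that acts with other Irf proteins and sets the identity of myeloid cells. It read 6.60, 6.58 and 6.65 in wild type hearts and 7.14, 7.06 and 7.06 in knockout hearts, a difference of 0.47 (SE 0.063, limma adjusted p = 0.00619), and a second probe set rose by 0.40 (limma adjusted p = 0.0227). None of 10 negative regulators passed (limma, 3 with an unadjusted p under 0.05). Of 13 nucleic acid sensing genes 1 rose, Trim25, the ubiquitin ligase that activates RIG-I. It read 8.58, 8.65 and 8.58 against 9.03, 8.92 and 8.82, a difference of 0.32 (SE 0.063, limma adjusted p = 0.0337), while its 2 other probe sets, at 0.24 and 0.034, did not pass. The Trim25 call was lost without wild type replicate 1 or 3 (limma adjusted p = 0.0862 and 0.108), without knockout replicate 1 or 2 (0.128 and 0.12), and with eBayes without trend (0.0593).

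A wider list of 56 other tested interferon-stimulated genes held 6 that rose, 1 that fell and 49 that did not pass. That is 12.5% called beside the background of 4.02%. This list was chosen with earlier results of these data known, so its share and median describe it and are no independent result. The median difference of the 56 genes was 0.11, and 39 of the 56 were above 0. The membrane proteins Ifitm2 and Ifitm3, which stop viruses from fusing with the cell, were among them. Ifitm3 read 11.38, 11.21 and 11.25 in wild type hearts and 11.66, 11.78 and 11.59 in knockout hearts, a difference of 0.40 (SE 0.060, limma adjusted p = 0.0105). Ifitm2 read 10.44, 10.32 and 10.38 against 10.79, 10.83 and 10.64, a difference of 0.37 (limma adjusted p = 0.0107). All 3 knockout hearts exceeded the wild type hearts in both, and knockout replicate 3 was the lowest knockout heart. Ifitm2 missed the threshold without knockout replicate 1 or 2 (limma adjusted p = 0.0654 and 0.0559), and Ifitm3 without knockout replicate 1 or wild type replicate 3 (0.055 and 0.05). These genes are near copies of each other, so probes may not tell them apart.

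The remaining risers showed the same separation of genotypes. Shisa5, a membrane protein tied to cell death, read 9.90, 9.84 and 9.87 in wild type hearts and 10.44, 10.35 and 10.24 in knockout hearts, a difference of 0.48 (SE 0.056, limma adjusted p = 0.00355), and a second probe set rose by 0.46. Ly6e, a lipid-anchored surface protein, read 11.01, 11.06 and 10.95 against 11.38, 11.37 and 11.27, a difference of 0.33 (limma adjusted p = 0.00675), while its other probe set differed by 0.10 and did not pass. Casp4, the inflammatory caspase that senses bacterial lipopolysaccharide inside cells, read 6.52, 6.58 and 6.78 against 7.22, 7.07 and 7.27, a difference of 0.56 (SE 0.089, limma adjusted p = 0.0134). Lgals9, the galactose-binding protein galectin-9, rose by 0.31 (limma adjusted p = 0.031), from 8.36, 8.34 and 8.42 to 8.65, 8.78 and 8.62. Each of these 4 genes was higher in 3 of 3 knockout hearts than in any wild type heart. That adds little for genes picked because they passed the test, and groups did not overlap in 28.7% of all genes, either direction. Casp4 lost its call without knockout replicate 1 (limma adjusted p = 0.081). Lgals9 lost it on leaving out wild type replicate 1, 2 or 3 (limma adjusted p = 0.0759, 0.0614 and 0.0747) or knockout replicate 1 or 2 (0.107 and 0.124), and with eBayes without trend (0.0523).

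The single gene that fell was Psme1, a subunit of the proteasome activator PA28, against 1.05% of all genes called lower. It read 11.01, 11.03 and 11.05 in wild type hearts and 10.68, 10.78 and 10.89 in knockout hearts, a difference of -0.24 (SE 0.053, limma adjusted p = 0.0457). The call was lost with the intensities as deposited (limma adjusted p = 0.108), with centred arrays (0.165), without a filter (0.068), in the upper 75% (0.0565) and with eBayes without trend (0.111). It was also lost without wild type replicate 1, 2 or 3 (limma adjusted p = 0.101, 0.0757 and 0.141) or knockout replicate 1 or 2 (0.143 and 0.149). In the wider list 21 of the 56 genes were highest in knockout replicate 3, against 11.9% of all genes tested. Some of these did not have the single-heart pattern. Lgals3bp, for example, read 8.78, 8.79 and 8.8 in the knockout hearts, all above the wild type hearts. Other genes of the list did have it. Irgm2, a GTPase of the same family as Igtp, read 7.57, 7.59 and 7.58 in wild type hearts and 7.66, 7.60 and 8.14 in knockout hearts, and the death ligand Tnfsf10 read 7.49, 7.47 and 7.44 against 7.39, 7.27 and 7.84. Both were chosen after their values were seen.

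**Figure D4:**
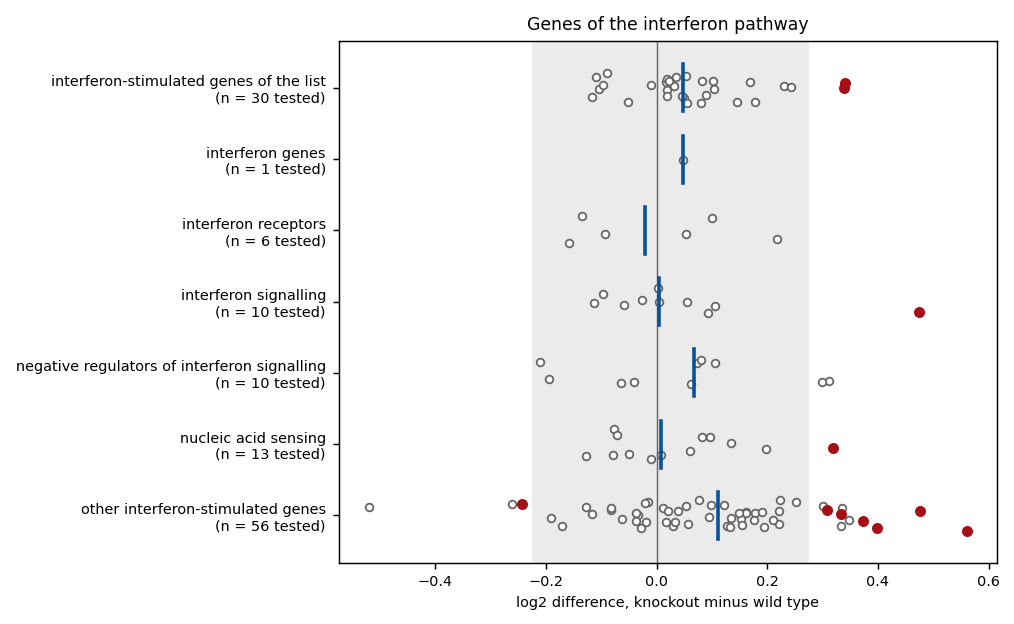
Knockout minus wild type difference in log2(intensity + 16) for the tested genes of the 6 interferon pathway lists and for the 30 interferon-stimulated genes, with 1 point per gene, filled where called, a blue line at each list's median and a shaded band from the 5th to the 95th percentile of all tested genes (-0.22 to 0.27). Of 96 other pathway genes 8 rose and 1 fell, and the wider list of 56 genes has the highest median of the lists at 0.11.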

How the data were processed

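Hearts were profiled on Affymetrix arrays from Trizol-extracted, biotin-labelled RNA, per the labels' protocols. The deposited values are intensities on a linear scale, 1 per probe set, and the sources used here do not say how the authors summarised and scaled them. The submitters' processing notes name GCOS 1.4 without its role. Deposited medians lay between 43.9 and 45.8, trimmed means differed by up to 8.42%, and the number of arrays limits precision. Symbols come from platform annotation of 2016, with 34945 probe sets holding 1 symbol.

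The 64 control probe sets were left out, the remaining 45037 were quantile normalised, 16 was added before log2, and the upper 50% by mean (22519 probe sets) were tested with limma 3.58.1 in R 4.3.3 (lmFit, eBayes with trend, Benjamini-Hochberg over all tested, threshold 0.05). Per-heart values are given for genes past the threshold and for the 8 listed genes with the largest differences. They are also given for the 4 listed genes with the largest range in a group. Receptor and ligand genes fixed beforehand are given by difference or mean intensity, and Ifngr1 also by heart. Per-heart values of other genes were added after their values were seen. Members, gene lists and markers were chosen with earlier results of these data known. Alternatives covered scaling, pseudocount, filter, spread model, array weights, probe set choice and leaving out each heart.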

Additional observations from a re-analysis of the deposited data

How the results depend on the processing

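The count of 2 listed genes past the threshold became 1 without a filter on dim probe sets, 1 in the upper 75%, 1 in the upper 25% and 1 with eBayes without trend. Leaving out each heart gave 0 to 2. It was 0 without wild type replicate 3 or any of the knockout replicates, where limma gave 2, 4, 4 and 2 listed genes with an unadjusted p under 0.05 (without wild type replicate 3, then knockout replicates 1, 2 and 3). Over all probe sets the count of 714 became 411 with eBayes without trend, 1171 with array weights and 189 to 749 on leaving out a heart, the low value without knockout replicate 1. The 9 calls among other pathway genes became 3 to 12 on leaving out a heart, the low value again without knockout replicate 1, and with 5 after removing wild type replicate 3 and 5 after removing knockout replicate 2. Irf8, Ly6e and Shisa5 stayed past the threshold in each alternative in which they were tested (Irf8 was below the filter in the upper 25%, and averaging a gene's probe sets was not run for single genes), and the remaining called genes lost it in at least 1. Without knockout replicate 3 the difference turned to -0.0056 for Igtp, -0.046 for Iigp1 and -0.077 for Gbp3. That of Gbp2 stayed positive at 0.075. Over the hearts left out, Igtp ran to 0.30, Iigp1 to 0.25 and Gbp3 to 0.16. On leaving out a heart, with the remaining arrays normalised anew, the listed genes' median ran from -0.026 to 0.11 and the score difference from -0.0011 to 0.11, both below 0 only without knockout replicate 3. The listed genes' median was 0.097 with intensities as deposited and 0.115 with centred arrays, where that of all probe sets was 0.032 and 0.051. No paired analysis was possible because the labels give no pairing of the hearts. With 3 hearts in a group the median SE of the tested listed genes was 0.091, and Irf9, at a difference of 0.23, was not called.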
